A study of Homo sapiens with 12 samples.

Results

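MAPT, ABCA7 and PLCG2 are the gene of tau itself and a pair of genes at loci known for Alzheimer disease risk. They were chosen by name and are 3 of the 1676 genes in the table deposited for SH-SY5Y cells, a cell line from a human neuroblastoma that is widely grown in place of neurons. The cells were transfected with a construct for 1 of 4 forms of tau, and RNA was taken 24 h later. Tau-WT, the reference, is the wild-type protein, Tau-K174Q replaces lysine with glutamine, Tau-S199E replaces serine with glutamate, and Tau-K174Q-S199E holds both changes. There were 3 libraries for each construct, 12 in all. Each was built from 400 ng of RNA with a kit that reads the 3′ ends of mRNAs. All groups had received a tau construct, so no group shows the cells without one, and the promoter of the constructs is not given in the sources used here.

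Tau binds and stabilises microtubules in axons, and it is the protein of the neurofibrillary tangles of Alzheimer disease. Glutamine in place of lysine is used as a mimic of acetylation, and glutamate in place of serine as a mimic of phosphorylation. ABCA7 is a membrane transporter of the ATP-binding cassette family that moves phospholipids and takes part in phagocytosis. PLCG2 is a phospholipase C that cleaves a membrane phosphoinositide into the second messengers inositol trisphosphate and diacylglycerol, downstream of immune receptors, and in the brain it is known mainly from microglia.

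To show what distinguishes the constructs, the reference coding sequence around both substituted residues is given from the 441-codon MAPT transcript MAPT-205 (GENCODE release 29, GRCh38, plus strand). Capitals mark the codon changed in K174Q (AAA, lysine, exon 7, chr17:45991550-45991552) and the codon changed in S199E (AGC, serine, exon 8, chr17:45996437-45996439), counted from the start codon, and the stretch is spliced across the junction of these exons.
MAPT-205: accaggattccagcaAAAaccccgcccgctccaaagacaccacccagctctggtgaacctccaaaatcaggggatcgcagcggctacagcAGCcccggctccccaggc
This is the sequence of the genome's own gene, and the sequence of the constructs was not used here. The serine codon lies 4892 bases before the end of that transcript, of which 4163 are 3′ UTR. In MAPT-215, also of 441 codons and annotated with 0 bases of 3′ UTR, it lies 729 bases before the end. Reads from a 3′ mRNA kit start near the poly(A) tail. Whether reads of a construct were counted as MAPT therefore depends on its 3′ end, which is not known here. The MAPT values below check neither the transfection nor the labels.

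MAPT lies on chromosome 17 from 45894382 to 46028334, ABCA7 on chromosome 19 from 1040101 to 1065572, and PLCG2 on chromosome 16 from 81739097 to 81962693, each on the plus strand of GRCh38. The antisense gene MAPT-AS1 overlaps the 5′ end of MAPT on the minus strand, and whether the authors counted by strand is not given in the sources used here. KANSL1, next to the 3′ end of MAPT, lies on the opposite strand at a gap of 1581 bases. ABCA7 ends 350 bases before ARHGAP45, a gene on the same strand that is in the table as well.

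The bases just before the RefSeq transcription start of ABCA7 and of PLCG2 are shown because these genes moved in opposite directions with Tau-S199E (250 bases each, GRCh38.p14, plus strand, chr19:1039857-1040106 and chr16:81738791-81739040). Capitals mark matches to a GC box (GGGCGG) or a CCAAT box (CCAAT), searched on both strands together with a TATA box (TATAAA) and a PU.1-type core (GAGGAAGT).
ABCA7: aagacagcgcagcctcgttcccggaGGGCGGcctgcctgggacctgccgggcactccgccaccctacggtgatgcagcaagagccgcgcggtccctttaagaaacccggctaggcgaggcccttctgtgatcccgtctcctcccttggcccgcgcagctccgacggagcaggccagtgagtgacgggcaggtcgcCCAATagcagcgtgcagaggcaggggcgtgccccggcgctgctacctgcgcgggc
PLCG2: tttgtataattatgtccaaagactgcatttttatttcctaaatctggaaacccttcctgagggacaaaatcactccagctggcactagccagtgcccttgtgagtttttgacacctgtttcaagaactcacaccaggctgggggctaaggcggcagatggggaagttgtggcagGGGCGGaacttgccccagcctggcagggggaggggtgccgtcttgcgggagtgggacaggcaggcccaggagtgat
ABCA7 held a GC box at -225 and a CCAAT box at -55, and PLCG2 a GC box at -76, each on the plus strand. Of 35116 RefSeq promoters cut to the same length, 42.6% held a GC box, 32.0% a CCAAT box, 10.7% a TATA box and 2.17% the PU.1-type core. The ABCA7 stretch was 70.4% G and C with 25 CG dinucleotides, and the PLCG2 stretch was 54.4% with 4, where the median over all promoters was 58%. A match here is a run of letters and not a shown binding site.

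The deposited values are standardised, with mean 0 and SD 1 for every gene across the 12 libraries, so a value says how high a library stands for that gene, in SD units of the gene. Levels cannot be compared between genes, the depth of the libraries is unknown, and the files do not show whether a low value was close to no reads at all. In bulk RNA, fewer cells of a type and less RNA per cell cannot be told apart. Nothing in the labels says that the replicates were separate cultures. The p-values then speak of no more than the spread among these libraries, which may be technical. Each gene of the table had a deposited adjusted p under 0.05 for a comparison that the header does not name. The sign of its fold change equalled that of the K174Q by S199E interaction, and also that of Tau-WT minus Tau-S199E, in 1676 of 1676 genes. Tests of these contrasts are therefore not independent of how the table was made.

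Libraries are named here by the number in their column. Library 12 of Tau-S199E stood apart, with the largest absolute value of the gene in 848 of 1676 genes (50.6%) and an SD over genes of 1.67, where the other 11 libraries lay between 0.47 and 1.21. The identity of the cells could not be checked, because none of 20 adrenergic neuroblastoma markers and none of 18 microglia and macrophage markers was among the 1676 genes, which were selected and say nothing on genes left out. Of 19 mesenchymal neuroblastoma markers 3 were listed (CD44, S100A6 and SNAI2). Their mean ran from -1.32 to -0.76 in the Tau-WT libraries, from 0.28 to 0.49 in those of Tau-K174Q, from 0.64 to 1.83 with Tau-S199E and from -1.0 to 0.67 with Tau-K174Q-S199E. All 3 rose with Tau-S199E against Tau-WT in the limma fit (S100A6 by 2.20 SD units, adjusted p = 0.0103). In that comparison 90% of the table passed (48.3% higher and 41.8% lower), and 3 genes of a selected table do not show a change of cell state. Whether their rise bears on the results below was not tested.

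PLCG2 was highest with Tau-S199E and lowest with Tau-WT, and its libraries lay close together within each of these constructs. With Tau-WT the values were -0.99, -1.07 and -0.99 in libraries 1, 2 and 3. With Tau-S199E they were 1.36, 1.66 and 1.37 in libraries 10, 11 and 12. No Tau-S199E library came near a Tau-WT library, and library 12, which stood apart in the table at large, lay between the other two for PLCG2. Tau-K174Q gave -0.40, 0.12 and -0.42 in libraries 4, 5 and 6. Tau-K174Q-S199E gave -0.74, 0.56 and -0.44 in libraries 16, 17 and 18, so that the libraries of these constructs overlapped each other while all of them stayed above Tau-WT and below Tau-S199E. The means were 1.46 ± 0.17 with Tau-S199E, -0.21 ± 0.68 with Tau-K174Q-S199E, -0.24 ± 0.31 with Tau-K174Q and -1.02 ± 0.04 with Tau-WT (SD, n = 3 each). The middle pair of this order did not differ beyond its spread.

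PLCG2 rose by 2.48 SD units with Tau-S199E against Tau-WT (SE 0.31, 95% interval 1.76 to 3.20, limma adjusted p = 0.00687, two-sided exact permutation p = 0.1, the smallest that 3 libraries against 3 allow). This was the 10th largest rise among the 1676 genes. Of the members, 2 of 3 passed there, against 90% of the whole table. All 3 had libraries without overlap there, as 94.2% of the table did (50.5% higher and 43.7% lower). The members' counts are close to these shares and are no result about the members. Leaving out any 1 library kept the difference between 2.38 and 2.53, with adjusted p up to 0.031. The difference between Tau-K174Q-S199E and Tau-S199E was -1.67 (SE 0.31, interval -2.39 to -0.95) and did not pass (limma adjusted p = 0.0644). It passed without library 17 (-2.06, adjusted p = 0.00984) and without library 18 (-1.56, adjusted p = 0.0184). Only 0.119% of the table passed in this comparison, while the libraries did not overlap in 43.4% of the genes (22.1% lower), PLCG2 among them. There 946 of the 1676 genes had an unadjusted limma p under 0.05, and 1153 passed with moderated variances. How much of the table passed without library 17 or library 18 is not given here. Tau-K174Q and Tau-S199E differed by -1.70 (SE 0.31), and without overlap, as in 36.2% of the table (limma adjusted p = 0.13). That size was exceeded by 1.49% of the genes, 0.0597% of the table passed, and 269 genes had an unadjusted limma p under 0.05. It passed without library 17 of Tau-K174Q-S199E, which enters this comparison only through the shared spread (adjusted p = 0.0275).

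Against Tau-WT, PLCG2 was 0.78 SD units higher with Tau-K174Q (SE 0.31, interval 0.06 to 1.5, limma adjusted p = 0.087) and 0.81 higher with Tau-K174Q-S199E (SE 0.31, interval 0.09 to 1.53, limma adjusted p = 0.533). Without library 17 the latter was 0.42. Neither passed, although the libraries of neither overlapped those of Tau-WT, which was so in 80.7% of the table for Tau-K174Q (43.6% higher) and in 11.6% for Tau-K174Q-S199E (7.28% higher and 4.3% lower). With Tau-K174Q no gene of the table passed in limma, 0% of 1676, where 870 had an unadjusted p under 0.05 and 1004 passed with moderated variances. With Tau-K174Q-S199E likewise 0% passed, 127 genes had an unadjusted p under 0.05 and 0 passed with moderated variances. In the fit on the 6 libraries compared, the difference of PLCG2 between Tau-K174Q and Tau-WT did pass (adjusted p = 0.0368). Tau-K174Q-S199E and Tau-K174Q differed by 0.03 (interval -0.69 to 0.75, limma adjusted p = 0.946).

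The interaction asks whether K174Q has the same effect with S199E as without it, and is the difference between Tau-K174Q-S199E and Tau-S199E minus that between Tau-K174Q and Tau-WT. For PLCG2 it was -2.45 SD units (SE 0.44, interval -3.47 to -1.43, limma adjusted p = 0.0182). Its parts were 0.78 without S199E and -1.67 with it. In this contrast 97% of the table passed (45.5% higher and 51.5% lower), and the part of the selection described above in this was not tested. PLCG2 is listed in the authors' deposited table at a log2 fold change of -3.91 (adjusted p = 0.00205). In size this is among the largest 39 of the authors' deposited table, whose median size is 1.36.

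**Figure D1:**
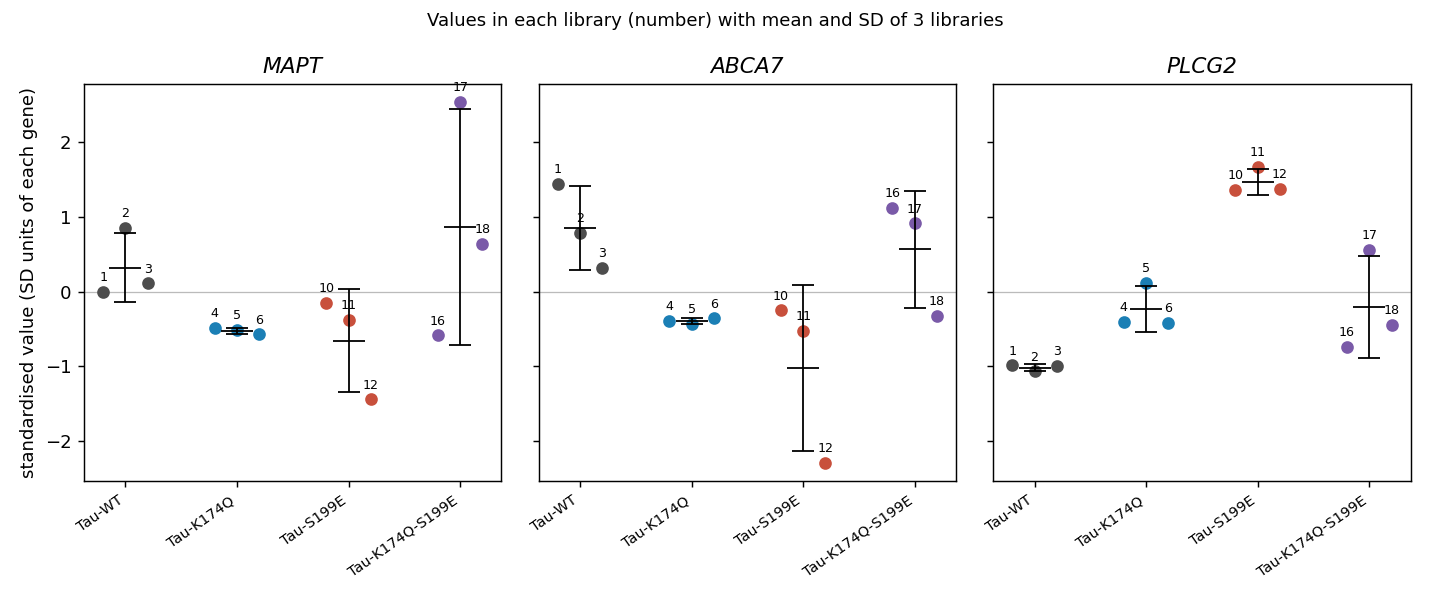
Standardised value (SD units of each gene, vertical axis) of MAPT, ABCA7 and PLCG2 in each of the 12 libraries, by construct. Points are libraries with their number, and bars give the mean ± SD of 3 libraries. The 3 PLCG2 values with Tau-S199E sit between 1.36 and 1.66, above all other libraries, and MAPT reaches 2.54 in library 17 alone.

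ABCA7 went the other way: it was highest with Tau-WT and lowest with Tau-S199E. Its values with Tau-WT were 1.44, 0.78 and 0.32 in libraries 1, 2 and 3. With Tau-S199E they were -0.25, -0.52 and -2.29 in libraries 10, 11 and 12. The groups did not overlap, as in 94.2% of the table (43.7% lower). Library 12 stood far below the other libraries of its construct. Tau-K174Q gave -0.39, -0.43 and -0.36 in libraries 4, 5 and 6, a range of 0.07 that only 6 other genes of the table matched or went below in that construct. Tau-K174Q-S199E gave 1.11, 0.91 and -0.33 in libraries 16, 17 and 18, the first pair within the range of Tau-WT and library 18 beside Tau-K174Q. The means were 0.85 ± 0.56 with Tau-WT, 0.57 ± 0.78 with Tau-K174Q-S199E, -0.39 ± 0.03 with Tau-K174Q and -1.02 ± 1.10 with Tau-S199E (SD, n = 3 each). Tau-WT and Tau-K174Q-S199E did not differ beyond their spread, nor did Tau-K174Q and Tau-S199E.

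ABCA7 fell by 1.87 SD units with Tau-S199E against Tau-WT (SE 0.60, 95% interval -3.25 to -0.49, limma adjusted p = 0.0217, two-sided exact permutation p = 0.1), in a comparison where 41.8% of the table fell. The call rests on several libraries. It was lost without Tau-WT library 1 (-1.57, adjusted p = 0.0639), without Tau-WT library 2 (-1.90, adjusted p = 0.0507), without library 12 (-1.24, adjusted p = 0.059) and in the fit on the 6 libraries compared (adjusted p = 0.07). The difference between Tau-K174Q and Tau-WT was -1.24 (SE 0.60, interval -2.62 to 0.14, limma adjusted p = 0.112), with no overlap of the libraries, as in 80.7% of the table (37.2% lower). It passed with moderated variances (adjusted p = 0.047) and on the 6 libraries alone (adjusted p = 0.0443). Tau-K174Q-S199E stood -0.28 from Tau-WT (interval -1.66 to 1.10, limma adjusted p = 0.782) and the sign turned without Tau-WT library 1 (0.02) and without library 18 (0.16).

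ABCA7 was 1.59 SD units higher with Tau-K174Q-S199E than with Tau-S199E (SE 0.60, interval 0.21 to 2.97). This did not pass in limma (adjusted p = 0.0722) and did without library 18 (2.03, adjusted p = 0.025). In the fit reported, 0.119% of the table passed in this comparison and 946 genes had an unadjusted limma p under 0.05. The interaction was 2.83 (SE 0.85, interval 0.88 to 4.78, limma adjusted p = 0.0194), of opposite sign to that of PLCG2, and it passed with each library left out (2.19 to 3.27). Of the whole table, 97% passed in this contrast (45.5% higher). The remaining differences, 0.96 between Tau-K174Q-S199E and Tau-K174Q and 0.63 between Tau-K174Q and Tau-S199E, did not pass (limma adjusted p = 0.456 and 0.56). The libraries of the first pair did not overlap, as in 11.2% of the table (5.19% higher and 5.97% lower). For ABCA7 the authors' deposited table lists a log2 fold change of 1.97 (adjusted p = 0.0105).

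**Figure D2:**
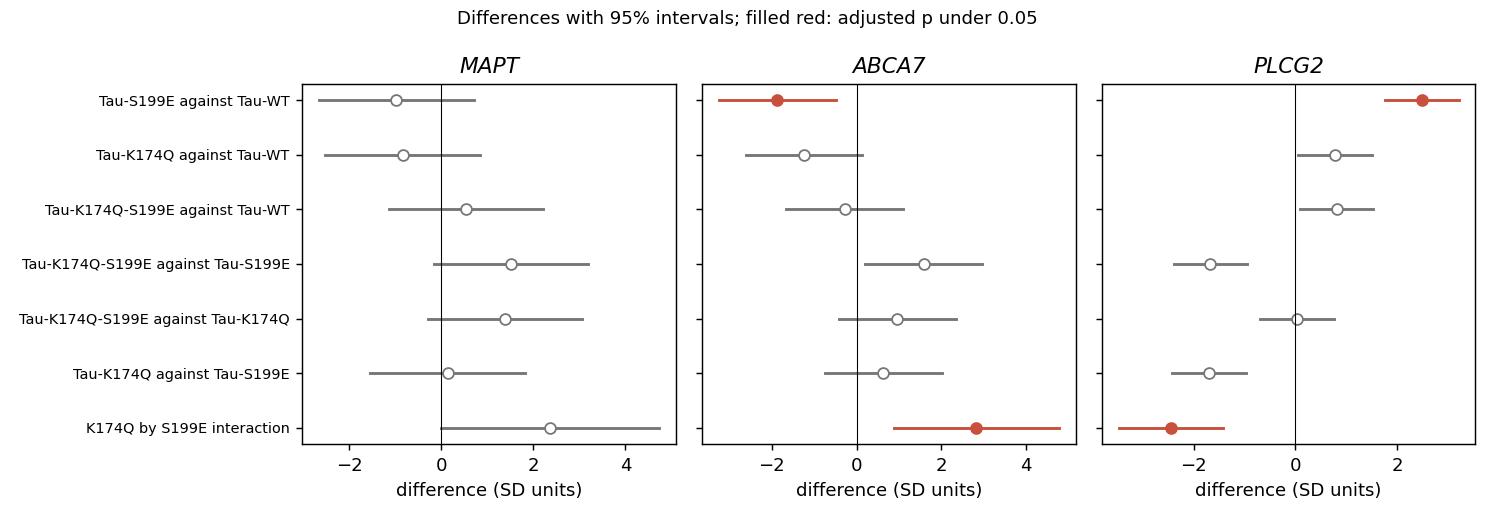
Difference in SD units (horizontal axis) of each member for the 6 pairs of constructs and the interaction, with 95% intervals from the linear model. Filled red points have a limma adjusted p under 0.05: Tau-S199E against Tau-WT and the interaction for ABCA7 (-1.87 and 2.83) and PLCG2 (2.48 and -2.45), and none for MAPT.

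MAPT showed no difference between constructs that passed in the fit reported, and its largest value came from 1 library. With Tau-K174Q-S199E the values were -0.59, 2.54 and 0.64 in libraries 16, 17 and 18. Library 17 was the highest of the 12 for MAPT, and no other gene of the 1676 stood as high in library 17. The genes next to it there were DSTN, which encodes the actin-severing protein destrin (2.27), ASL, an enzyme of the urea cycle (2.12), and CEP295, a centriole protein gene (2.03). Library 16 of the same construct was the second lowest for MAPT. The range of 3.12 within this construct was the second widest of the table, where the median was 1.68.

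The other constructs spread less. Tau-WT gave 0.00, 0.85 and 0.11 in libraries 1, 2 and 3, and Tau-K174Q gave -0.49, -0.51 and -0.57 in libraries 4, 5 and 6. The Tau-K174Q range of 0.08 was among the 14 narrowest of the 1676 genes, and library 16 lay beside it, so that 4 libraries fell within 0.10. Tau-S199E gave -0.15, -0.38 and -1.44 in libraries 10, 11 and 12. All libraries of Tau-K174Q and Tau-S199E were below all of Tau-WT, as 37.2% and 43.7% of the table were. The means were 0.86 ± 1.57 for Tau-K174Q-S199E, 0.32 ± 0.46 for Tau-WT, -0.52 ± 0.04 for Tau-K174Q and -0.66 ± 0.69 for Tau-S199E (SD, n = 3 each), and neighbours in this order other than Tau-WT and Tau-K174Q overlapped.

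The intervals for MAPT were wide, and no limma test of it passed in the fit reported, over all 12 libraries. Some passed in the alternative fits given in the closing section. The difference from Tau-WT lay between -2.65 and 0.70 for Tau-S199E, between -2.52 and 0.83 for Tau-K174Q and between -1.13 and 2.22 for Tau-K174Q-S199E (95% intervals, SD units). Tau-K174Q-S199E was 1.52 above Tau-S199E (SE 0.73, limma adjusted p = 0.106) and 1.39 above Tau-K174Q (SE 0.73, limma adjusted p = 0.456). Without library 17 these became 0.68 and 0.55, and the difference from Tau-WT turned from 0.54 to -0.29. The interaction of 2.37 (SE 1.03, interval -0.0043 to 4.73) missed the threshold (limma adjusted p = 0.0517). It passed without library 16 (3.09, limma adjusted p = 0.0345) and was 1.53 without library 17. In the fit reported 97% of the table passed for the interaction and 90% for Tau-S199E against Tau-WT. The log2 fold change of MAPT in the authors' deposited table is 1.54 (adjusted p = 0.0115).

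**Figure D3:**
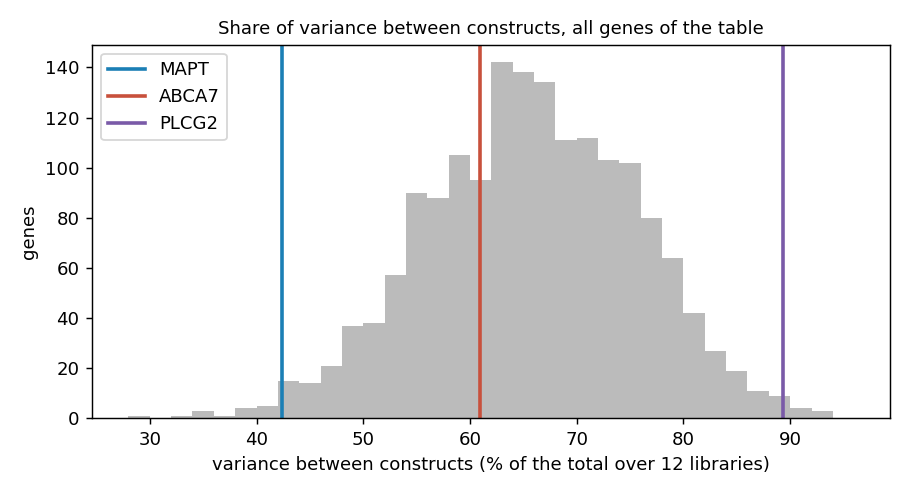
Number of genes (vertical axis) by the percentage of a gene's variance over 12 libraries that lies between the 4 constructs (horizontal axis), for the 1676 genes. MAPT at 42.4% stands near the low end, ABCA7 at 61.0% below the median of 65.8%, and PLCG2 at 89.3% near the high end.

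The constructs accounted for 42.4% of the variance of MAPT over the 12 libraries, with 17 genes of the table lower. They accounted for 61.0% in ABCA7 and for 89.3% in PLCG2, with 1667 genes lower. The 3 genes were thus spread over nearly the whole range of the table, 29.8% to 93.8%. The authors placed them in different clusters, MAPT in cluster 2, ABCA7 in cluster 1 and PLCG2 in cluster 4. MAPT followed the mean of the other 254 genes of its cluster less than most did, with a Pearson r of 0.52 over 12 libraries against a cluster median of 0.85, and 6 of the 255 genes were lower. For ABCA7 r was 0.89 (cluster median 0.92) and for PLCG2 0.80 (0.91). In PLCG2 the departure was clearest with Tau-K174Q, where its mean was -0.24 and that of its cluster 0.17.

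Among the members, r over the 12 libraries was 0.57 for MAPT and ABCA7, -0.62 for ABCA7 and PLCG2 and -0.17 for MAPT and PLCG2. The last of these was -0.53 without library 17 and 0.03 without library 12. These are descriptions over libraries that share constructs and the selection of the table. When each construct's mean was removed, the deviations of MAPT and PLCG2 had an r of 0.79, those of MAPT and ABCA7 0.27 and those of ABCA7 and PLCG2 0.14. The r of 0.79 came from Tau-K174Q-S199E, where MAPT deviated by -1.45, 1.67 and -0.22 and PLCG2 by -0.53, 0.77 and -0.23 in libraries 16, 17 and 18. Without that construct it was 0.07 over the other 9 libraries, a value added after the data were seen. In Tau-WT the deviations of MAPT and PLCG2 had opposite signs in all 3 libraries. Those of PLCG2 were only 0.03, -0.05 and 0.02 in libraries 1, 2 and 3, with a range among the 8 narrowest of the 1676 genes in that construct. Their signs are therefore not read as a result. For the deviations of MAPT and ABCA7 r was 0.68 without Tau-K174Q-S199E and -0.04 without Tau-S199E.

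The gene whose values were most like those of ABCA7 was CLU, which encodes clusterin, an extracellular chaperone and apolipoprotein whose locus is also known for Alzheimer disease risk. CLU was at 1.45, 0.56 and 0.40 in Tau-WT libraries 1, 2 and 3 and at -0.60, -0.72 and -0.38 in Tau-K174Q libraries 4, 5 and 6. It was at -0.32, -0.16 and -2.05 in Tau-S199E libraries 10, 11 and 12 and at 1.25, 1.11 and -0.53 in Tau-K174Q-S199E libraries 16, 17 and 18. Library 12 was the lowest and libraries 1, 16 and 17 were the highest for both genes. Pearson r was 0.98, the highest of 1675 genes, and 0.97 on deviations from the construct means, again the highest. By Spearman's rank correlation (0.89) CLU was in place 27. Leaving out 1 library kept r at 0.97 or above and CLU in place 1 or 2. In the limma fit CLU fell with Tau-S199E against Tau-WT by 1.65 SD units (SE 0.64, adjusted p = 0.038).

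Of 1675 genes, 225 had an r with ABCA7 of at least 0.9 in size, 54 in the same direction and 171 in the opposite one, where the median gene of the table had 128 such partners. CTR9, a subunit of the PAF1 transcription elongation complex, and ANKRD11, a chromatin regulator, came next (r = 0.96 and 0.95). The most opposite were GON7 (r = -0.98), which encodes a subunit of the KEOPS tRNA modification complex, WDR61 (-0.97), another PAF1 complex gene, and RBM27 (-0.97), an RNA-binding protein gene. CTR9 and WDR61 belong to the same complex and stood at opposite ends. MAPT had 1 such partner, CEP295 (r = 0.92), followed by DSTN (0.84) and the ubiquitin ligase gene UBR7 (0.80), the first pair being also those high in library 17. The most opposite to MAPT were NUDT4 (-0.81), NOP16 (-0.80) and the cytokine gene IL18 (-0.80). PLCG2 had 21 such partners and was most like MRPS34 of the mitochondrial ribosome (r = 0.96), CUTA (0.95) and TRAPPC3, a subunit of a vesicle tethering complex (0.95). The most opposite to it were RPA2, a single-strand DNA-binding protein of replication (-0.93), AKR7A2 (-0.90) and GDE1 (-0.90).

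**Figure D4:**
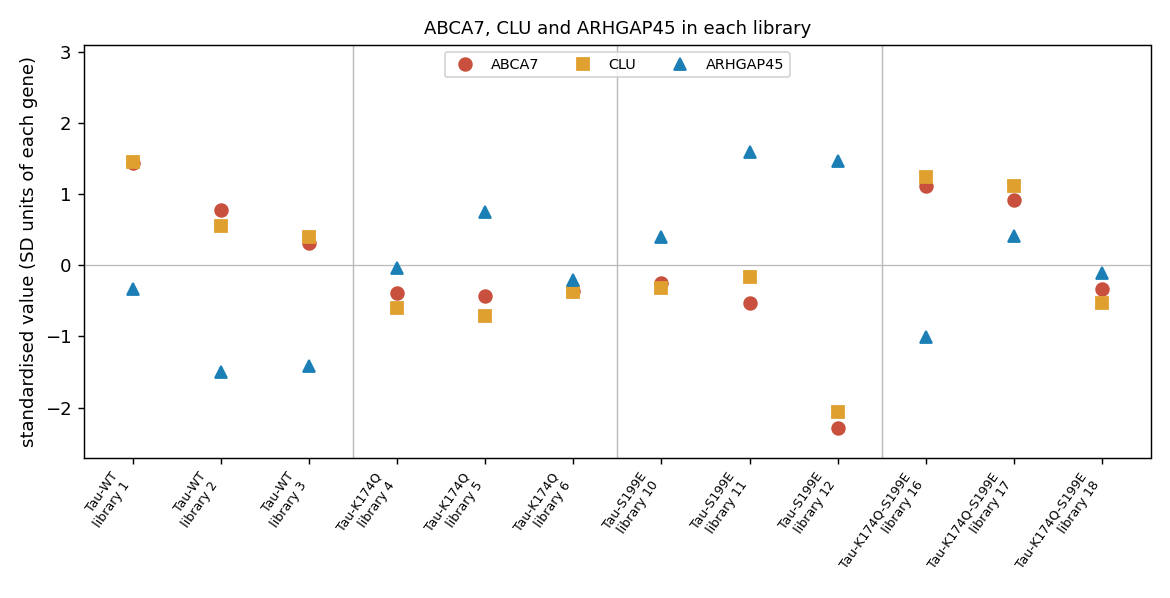
Standardised value (SD units, vertical axis) of ABCA7, CLU and ARHGAP45 in each library (horizontal axis), with lines between constructs. ABCA7 and CLU lie close together in all 12 libraries, from 1.44 and 1.45 in library 1 to -2.29 and -2.05 in library 12, while ARHGAP45 is at 1.46 in library 12.

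Within 1 Mb of the start of ABCA7 the table holds 7 of 139 annotated genes. In the table at large 90% of the genes passed with Tau-S199E against Tau-WT (48.3% higher and 41.8% lower), and the 7 are to be read against that share. Lower, as ABCA7 was, were 5: CFD, which encodes complement factor D (-1.97), WDR18 (-2.30), POLR2E, an RNA polymerase subunit (-2.14), GPX4, the glutathione peroxidase that protects lipids from peroxidation (-2.07), and MBD3 (-1.57). NDUFS7, of respiratory complex I, stood at -1.46 and did not pass (limma adjusted p = 0.0603). ARHGAP45, the gene that begins 350 bases past the end of ABCA7, rose by 2.23 SD units (SE 0.52, limma adjusted p = 0.0104). Its values were -0.33, -1.5 and -1.41 with Tau-WT and 0.40, 1.6 and 1.46 with Tau-S199E. They did not overlap, as in 94.2% of the table (50.5% higher), and the r of ARHGAP45 with ABCA7 was -0.67. Near PLCG2 the table holds ATMIN (-2.37) and MPHOSPH6 (-2.19), both of which fell while PLCG2 rose, and near MAPT only KIF18B (1.94), which rose. Of 15 genes listed for the MAPT locus at 17q21.31, MAPT alone was in the table.

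Of 82 genes listed for Alzheimer disease risk, 13 were in the table, the members included. With Tau-S199E against Tau-WT 7 rose, 4 fell and 2 did not pass (MAPT and SLC2A4RG), where 48.3% of the table rose and 41.8% fell. Their median difference was 1.63 SD units, against 1.41 over all genes. Besides PLCG2 and ABCA7, the largest differences were those of COX7C, a subunit of cytochrome c oxidase (2.26, limma adjusted p = 0.00968), RBCK1, of the linear ubiquitin ligase complex (-2.15, 0.012), TSPAN14, a tetraspanin (-2.12, 0.0147), and EED, of Polycomb repressive complex 2 (2.10, 0.0108). COX7C reached 2.45 in library 12, beside 0.90 and 0.95 in libraries 10 and 11. RBCK1 stood at -2.01 in library 12, beside -0.70 and -0.74. PLCG2 was the exception among these, with library 12 between the other libraries. Without library 12, 5 of the 13 passed, 3 higher and 2 lower. The count was also 7 without Tau-WT library 1 and 6 without Tau-WT library 2. The whole table lost calls without library 12 too, as counted in the closing section. The table's share without either Tau-WT library is not given here, so these counts are no result about the risk genes. In limma none of the 13 passed in a comparison of Tau-K174Q or Tau-K174Q-S199E with Tau-WT, where 0% of the table passed, so this is no result about the risk genes.

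**Figure D5:**
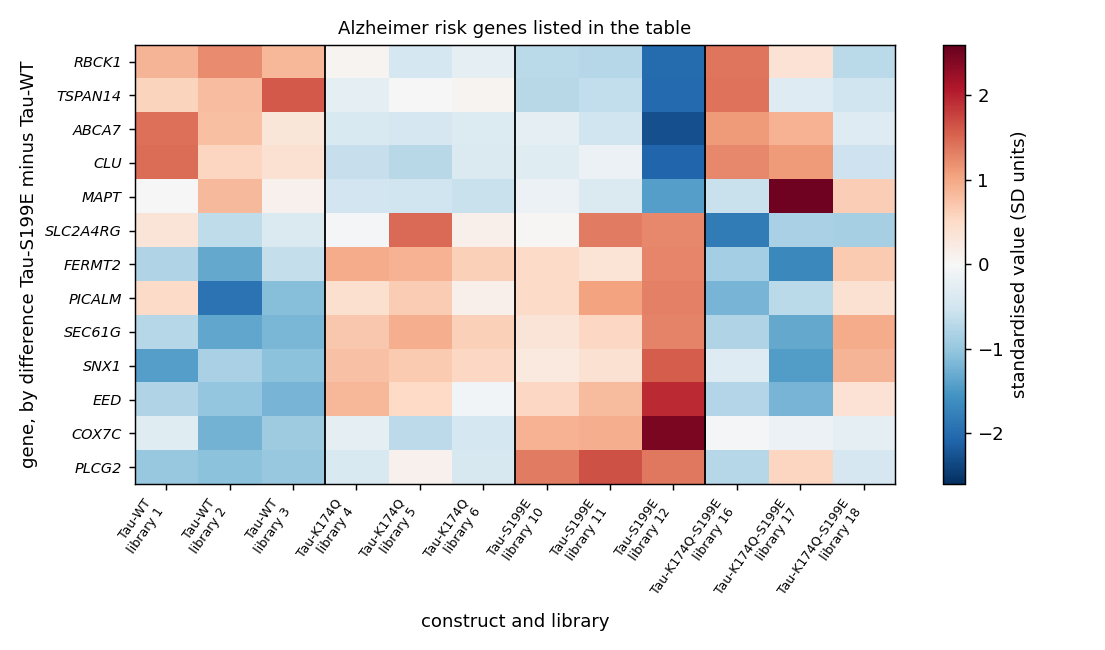
Standardised value (colour, SD units) of the 13 listed Alzheimer risk genes (rows) in each library (columns, grouped by construct), ordered by how far Tau-S199E lay from Tau-WT. RBCK1 (-2.15) is at the top and PLCG2 (2.48) at the bottom, and MAPT in library 17 (2.54) stands out in its row.

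Genes around each member in its pathway were few. No other gene of the 12 in ABC transporter subfamily A was in the table. Of 28 other genes of the ATP-binding cassette family 3 were listed. ABCF1, a translation factor of that family, fell with Tau-S199E against Tau-WT (-2.01). TAP2, a peptide transporter of antigen presentation (1.81), and the drug efflux pump ABCG2 (1.41) rose. In that comparison 90% of the table passed (48.3% higher and 41.8% lower), and the median of the 3 was 1.41, as over all genes. Of 64 genes of phospholipase C and phosphoinositide signalling 8 were in the table, and PLCG2 was the only phospholipase C. With Tau-S199E against Tau-WT, PLCG2, the phosphatidylinositol 4-kinases PI4KB (2.23) and PI4K2B (1.64) and CDS2, which makes a precursor of phosphatidylinositol (2.12), rose. PIK3R3, a regulatory subunit of phosphoinositide 3-kinase, fell (-2.27). INPPL1 (-1.42), PIP5K1A (1.35) and PIP4K2C (1.17) did not pass. This is 5 of 8 passing, where 90% of the table passed, and the median of the 8 was 1.49, against 1.41 over all genes. Of 16 upstream partners of PLCG2 only the adaptor GRB2 was listed, and it rose (1.53, limma adjusted p = 0.0408).

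Of 42 microtubule-associated protein genes 9 were in the table, MAPT included, with 5 higher, 2 lower and 2 not passing with Tau-S199E against Tau-WT. This is 7 of 9 passing, where 90% of the table passed (48.3% higher and 41.8% lower), and the median was 1.53, against 1.41 over all genes. The largest differences were those of CKAP5, a microtubule polymerase (-2.22), DPYSL3 (2.20), TACC2 (2.15), EML4 (2.08), MAPRE1, which tracks growing microtubule ends (1.98), and TACC1 (-1.84). MAPT had the smallest difference of the 9.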

How the data were processed

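RNA of 12 SH-SY5Y libraries, 3 for each of 4 tau constructs, was read with a 3′ mRNA kit, per the labels' protocols. GRCh38, DESeq2, RSEM 1.2.31 and STAR 2.5.3a are named in the submitters' processing notes, with no role or order. For the transform, the gene filter and the strand setting, nothing is stated in those sources. The deposited library columns are a score, standardised by the authors over the 12 libraries for each of 1676 genes, as the values show. The deposited log2 fold changes, the deposited adjusted p-values and a deposited cluster number are given per the file headers, which do not name the comparison. Standardising removed level, depth and fold size, so no count model, pseudocount or low-value filter could be applied, and depth gives no interval.

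A mean per construct was fitted with limma 3.58.1 (R 4.3.3) over all 12 libraries. Each contrast was tested with the ordinary residual variance of the gene (8 degrees of freedom), which does not depend on its scale, and Benjamini-Hochberg adjustment over 1676 genes, threshold 0.05, two-sided. The 21 tests of the members are 7 contrasts for each of 3 genes. The fit was tested on simulated data. Alternatives were moderated variances, the compared libraries alone, ranks, centred libraries and leaving out each library. Columns name the construct and a library number but no replicate number, so libraries carry the column number, and all per-sample columns were used. The members and lists were chosen with earlier results of these data known. Genes named are the members, the 3 most like and 3 most opposite to each by Pearson r, table genes within 1 Mb, and list genes in the table (all of up to 8, otherwise the 6 largest differences between Tau-S199E and Tau-WT). SLC2A4RG and ASL fall outside this rule and were chosen after their values were seen. Positions come from GENCODE release 29, promoters from RefSeq (GRCh38.p14), whose table matched ABCA7 and PLCG2.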

Additional observations from a re-analysis of the deposited data

Results flagged for a closer look

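The effect of K174Q differed with and without S199E for ABCA7 and PLCG2, by the test of the interaction in limma. It was 2.83 SD units for ABCA7 (adjusted p = 0.0194) and -2.45 for PLCG2 (adjusted p = 0.0182). In ABCA7 K174Q against Tau-WT was -1.24 and Tau-K174Q-S199E against Tau-S199E was 1.59, and in PLCG2 these were 0.78 and -1.67. None of these 4 differences passed alone in the fit reported, and some passed in the alternative fits given below. The deposited fold changes have the sign of this contrast in every gene, and 97% of the table passed in it, so neither call is separate evidence.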

How the results depend on the processing

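Moderated variances added 5 calls to the 21 of the members: MAPT for Tau-K174Q-S199E against Tau-S199E (1.52, adjusted p = 0.0202) and for the interaction (2.37, 0.00338), ABCA7 for Tau-K174Q against Tau-WT (-1.24, 0.047) and Tau-K174Q-S199E against Tau-S199E (1.59, 0.0184), and PLCG2 for the latter (-1.67, 0.0161). With moderated variances 1676 of the 1676 genes passed for the interaction, so that call is no result about MAPT. In the same setting 1153 genes passed for Tau-K174Q-S199E against Tau-S199E and 1004 for Tau-K174Q against Tau-WT. With only the compared libraries, Tau-K174Q against Tau-WT passed for ABCA7 (-1.24, 0.0443) and PLCG2 (0.78, 0.0368). ABCA7 lost Tau-S199E against Tau-WT there (-1.87, 0.07). Ranks added PLCG2 for Tau-K174Q-S199E against Tau-S199E (-5 ranks, 0.0413) and turned 3 differences that had not passed: MAPT for Tau-K174Q-S199E against Tau-WT (-1.33 ranks) and Tau-K174Q against Tau-S199E (-0.67), and PLCG2 for Tau-K174Q-S199E against Tau-K174Q (-1 rank). Of the 13 risk genes, 7 passed by ranks for Tau-S199E against Tau-WT and 11 in the fit reported. The share of the table passing by ranks there is not given here, so the count is no result about the risk genes. Centring libraries on their medians added the MAPT interaction (3.04, 0.0353), a contrast in which 97% of the table passed in the fit reported.

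Leaving out 1 library, MAPT ranged from -0.29 to 1.27 for Tau-K174Q-S199E against Tau-WT, from -0.26 to 0.39 for Tau-K174Q against Tau-S199E and from 1.53 to 3.09 for the interaction. ABCA7 ranged from -2.25 to -1.24 for Tau-S199E against Tau-WT, from -0.56 to 0.16 for Tau-K174Q-S199E against Tau-WT, from 0.95 to 2.03 for Tau-K174Q-S199E against Tau-S199E and from -0.0046 to 1.01 for Tau-K174Q against Tau-S199E. PLCG2 ranged from 0.42 to 1.07 for Tau-K174Q-S199E against Tau-WT, from -2.06 to -1.41 for Tau-K174Q-S199E against Tau-S199E, from -0.35 to 0.29 for Tau-K174Q-S199E against Tau-K174Q and from -1.88 to -1.60 for Tau-K174Q against Tau-S199E. The risk gene count, added after the data were seen, ranged from 5 to 12. The cause was not tested, beyond the fewer libraries in these fits. PLCG2 passed for Tau-S199E against Tau-WT under each of these settings, as did both interaction calls wherever the interaction could be fitted. With 90% and 97% of the table passing in these contrasts in the fit reported, this is no separate evidence for either gene.

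Over the table, 1153 genes passed for Tau-K174Q-S199E against Tau-S199E with moderated variances and 411 by ranks, against 2 in the fit reported. For Tau-K174Q against Tau-WT 1004 passed with moderated variances, 819 with the compared libraries alone and 26 by ranks, against 0. For Tau-S199E against Tau-WT the count ran from 833 (without library 12) to 1572 with a library left out, against 1509.

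By Spearman's rank correlation, 1 of the 6 genes named as most like or opposite stayed for MAPT, 0 for ABCA7 and 0 for PLCG2. No paired analysis was possible because the columns carry no replicate number. A pseudocount, a low-value filter and other size factors were not run, since the values are standardised. The depth is unknown.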
